A study of Rattus norvegicus with 26 samples.

Results

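Remnant rat livers harvested 36 h after removal of 2/3 of the liver (2/3PH 36H, 3 arrays) were compared with those harvested 24 h after the same operation (2/3PH 24H, 3 arrays), to see which of the miRNA differences present at 24 h continued, stopped or turned back by 36 h. The miRNAs described are those with the scanner software's detection mark on all 3 arrays of either group, which holds for 137 of the 677 rat miRNAs on the array. Of these, 117 were detected on all 6 arrays, 10 on every 24 h array but not every 36 h array, and 10 on every 36 h array but not every 24 h array.

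The series holds 26 arrays, each from the right lobes of a different male Sprague-Dawley rat, collected in the same morning hours. Besides the 6 arrays above, this account uses 3 arrays of normal liver (no resection, although a label calls these livers sham) and 3 arrays each of liver at 24 h and 36 h after a 1/3 resection (1/3PH), in which the left lateral lobe was taken out and little replication follows. Where a source label differs from a title by 1 or 2 hours, as on some arrays of both times, the title is followed here. Whole lobes were profiled, so more cells of a type cannot be told apart from more RNA per cell.

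After a large resection the quiescent hepatocytes of a rat liver enter the cell cycle almost together, replicate their DNA about a day after surgery, divide, and are followed later by the other liver cells. miRNAs are short RNAs that lower the output of mRNAs pairing with the seed near their 5′ end, so miRNAs with the same seed share many targets. The miR-15/16 family is known for targeting D- and E-type cyclins and Bcl2, and the miR-17/92 and miR-106b/25 clusters for targeting cell cycle inhibitors.

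The miRNAs that carry the results are printed below in groups by seed, because the single difference called between the times belongs to 1 member of a seed group. Mature sequences are from RefSeq (rat assembly GRCr8), 5′ to 3′, with the seed, bases 2 to 8, in capitals. Where the array name gives no arm, the arm long known as the abundant strand was taken, and 27 of the 29 names looked up were matched, all but miR-200b and miR-429.
miR-15b: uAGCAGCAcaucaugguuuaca
miR-16: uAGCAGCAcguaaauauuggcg
miR-195: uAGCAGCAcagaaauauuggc
miR-497: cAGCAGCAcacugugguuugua
miR-322: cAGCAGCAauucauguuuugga
These 5 share the seed AGCAGCA. The mature miR-15b lies at chr2:155555197-155555218 and miR-16 at chr2:155555343-155555364, both on the plus strand within Smc4, which encodes a condensin subunit. The next sequences are the miRNAs of the miR-106b/25 and miR-17/92 type that were higher at 24 h than in normal liver, with miR-92a, in order of their 3 seeds.
miR-106b: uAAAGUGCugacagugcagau
miR-93: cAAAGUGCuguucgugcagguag
miR-17-5p: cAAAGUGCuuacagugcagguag
miR-20a: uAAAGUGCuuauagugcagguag
miR-20b-5p: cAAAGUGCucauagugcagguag
miR-25: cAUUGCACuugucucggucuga
miR-92a: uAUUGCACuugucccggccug
miR-18a: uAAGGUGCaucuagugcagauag
The miR-106b, miR-93 and miR-25 sequences lie on the minus strand of chromosome 12 within Mcm7, a gene of the replicative helicase. The last set holds miRNAs outside these families that are taken up below, none of which shares a seed with another.
miR-34a: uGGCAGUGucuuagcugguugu
miR-7a: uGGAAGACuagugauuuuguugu
miR-130a: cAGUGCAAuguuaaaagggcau
miR-652*: aCAACCCUaggagggggugccau
miR-192: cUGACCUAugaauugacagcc

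From 24 h to 36 h, 1 miRNA passed the test. miR-15b rose, and no miRNA fell. Signals are given in units scaled to a common 75th percentile per array. miR-15b read 264.5, 211 and 211 in the 3 normal livers. At 24 h after 2/3PH it read 278, 426 and 290. At 36 h it read 556, 545 and 623. Every 36 h array was above every 24 h array, and a single 24 h rat, m29B, stood well above the normal livers. The 36 h geometric mean was 1.76 times the 24 h mean, a log2 difference of 0.82 (SE 0.14, 95% interval 0.52 to 1.11, n = 3 against 3, limma adjusted p = 0.00183). This was 1 of 144 miRNAs fitted, or 0.694%. At an unadjusted limma p under 0.05 there were 11 of 144 (7.64%), 7 higher at 36 h (4.86%) and 4 lower (2.78%).

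The miR-15b call depended on how the arrays were treated. All 24 h arrays lay on 1 slide scanned on 1 day, and the 36 h arrays lay on 2 slides scanned on 2 other days, so slide and time cannot be told apart within the operation. With scan day as a block, which the 3 normal livers (1 per scan day) make possible, the difference was 1.00 (limma adjusted p = 0.0066), and with slide as a random block 0.84 (limma adjusted p = 0.0115). Relative to the normal liver scanned on the same day, miR-15b read 0.07, 0.69 and 0.13 log2 units higher on the 24 h arrays and 1.40, 1.37 and 1.56 higher on the 36 h arrays. Under normexp background correction, however, the difference was 0.60 and was not called (limma adjusted p = 0.0838). The median of the 137 miRNAs moved to 0.55, with miR-15b 0.06 above it. That move was not shared by all miRNAs. Relative to the median, the let-7 family (list median) went from -0.01 to -0.66 and the hepatocyte markers from 0.05 to -0.47. The 0.06 is thus a place relative to a median that moved unevenly. Counted from the top of the 137 miRNAs, miR-15b ranked 7 in the main processing and 39 under normexp, which was run with an offset of 50. The cause of this move was not tested. miR-15b was also not called without scaling (0.74, limma adjusted p = 0.986), with the percentile over all probes (1.19, limma adjusted p = 0.486) or in a fit of the 6 arrays alone (0.82, limma adjusted p = 0.201). Without scaling, 0 of 144 miRNAs had an unadjusted limma p under 0.05, and that of miR-15b was 0.0729.

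The other miRNAs with the miR-15b seed did not pass the test, and their differences ran both ways. miR-16, encoded next to miR-15b, read 786, 908 and 788 at 24 h and 1029, 966 and 890 at 36 h, with overlapping groups (log2 difference 0.22, and 0.64 with the scan day block, limma adjusted p = 0.0569). The log2 ratio of miR-15b to miR-16 within each array, which no scaling of whole arrays can change, was -1.50, -1.09 and -1.44 at 24 h and -0.89, -0.83 and -0.51 at 36 h. The groups did not overlap. miR-195 read 311, 284 and 269 at 24 h and 218, 232 and 223 at 36 h, a log2 difference of -0.36, which was -0.13 with the scan day block. miR-322 and miR-497 differed by -0.26 and -0.17, and by -0.19 and -0.01 with that block. Of the 5 measured members, 1 was called, and the median difference was -0.17 against 0.00 for the 137 miRNAs.

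**Figure D1:**
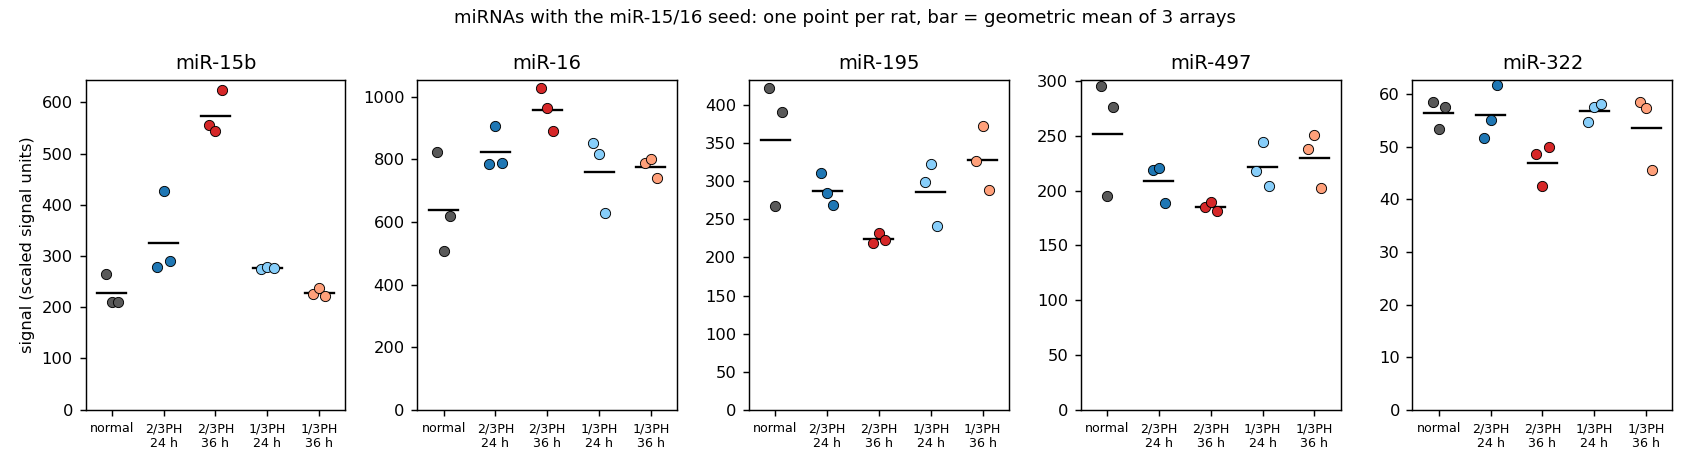
Scaled signal (vertical axis, linear, from 0) of the 5 miRNAs with the seed AGCAGCA in normal liver and at 24 h and 36 h after 2/3PH and 1/3PH. Each point is a rat and each bar the geometric mean of 3 arrays; for miR-15b the 36 h arrays after 2/3PH lie between 545 and 623, above all other arrays shown.

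After 1/3PH, miR-15b did not show this difference. It read 275, 279 and 276 at 24 h and 225, 238 and 221 at 36 h, a log2 difference of -0.28 (95% interval -0.57 to 0.02, limma adjusted p = 0.86). The difference between the operations was 1.10 log2 units (95% interval 0.68 to 1.51, limma adjusted p = 0.00356), the single miRNA of 144 to pass that test (0.694%). With slide as a random block it was 1.12 with limma adjusted p = 0.0647. The 1/3PH 36 h arrays share the slide of the 2/3PH 24 h arrays, so an effect of that slide enters the difference between operations doubled. It cancels in the mean of both operations, although effects of the other slides do not, and in that mean miR-15b differed by 0.27 (95% interval 0.06 to 0.48, limma adjusted p = 0.37) and 0 of 144 passed, with 11 (7.64%) at an unadjusted limma p under 0.05 and 6 with slide as a fixed block. After 1/3PH alone 0 of 144 passed, with 6 (4.17%) at an unadjusted limma p under 0.05.

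At 24 h after 2/3PH, 26 of the 144 miRNAs (18.1%) differed from normal liver in the same fit, 14 higher (9.72%) and 12 lower (8.33%). This count depended on the processing: it was 0 without scaling, with the percentile over all probes and under normexp, 12 in the deposited table and 15 under quantile normalization. With the scan day block 14 of the 26 kept their call, and miR-25, miR-200b, miR-429 and miR-192 were among those that did not (limma adjusted p = 0.271, 0.134, 0.065 and 0.0504). By 36 h, 1 of the 26 had moved further the same way (miR-15b), 0 had turned back, and for 25 no further change was called. Both comparisons use the 24 h arrays, so a high or low reading there moves them in opposite directions. The 95% interval of the later difference contained 0 for 22 of the 26. Of the 14 higher at 24 h, 11 had a later difference above 0 and 3 below, with a median of 0.16 log2 units. Of the 12 lower at 24 h, 8 had a later difference below 0 and 4 above, with a median of -0.05. A miRNA without a call may still have moved by as much as its interval allows, and the half-widths ran from 0.19 (miR-192) to 0.95 (miR-500). For miR-15b the difference of 24 h from normal, 0.52 (limma adjusted p = 0.0147), was no longer called without rat m29B (0.32, limma adjusted p = 0.108), without normal liver m65 (0.46, limma adjusted p = 0.0567) or m75 (0.46, limma adjusted p = 0.0735), or with the scan day block (0.41, limma adjusted p = 0.0785).

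**Figure D2:**
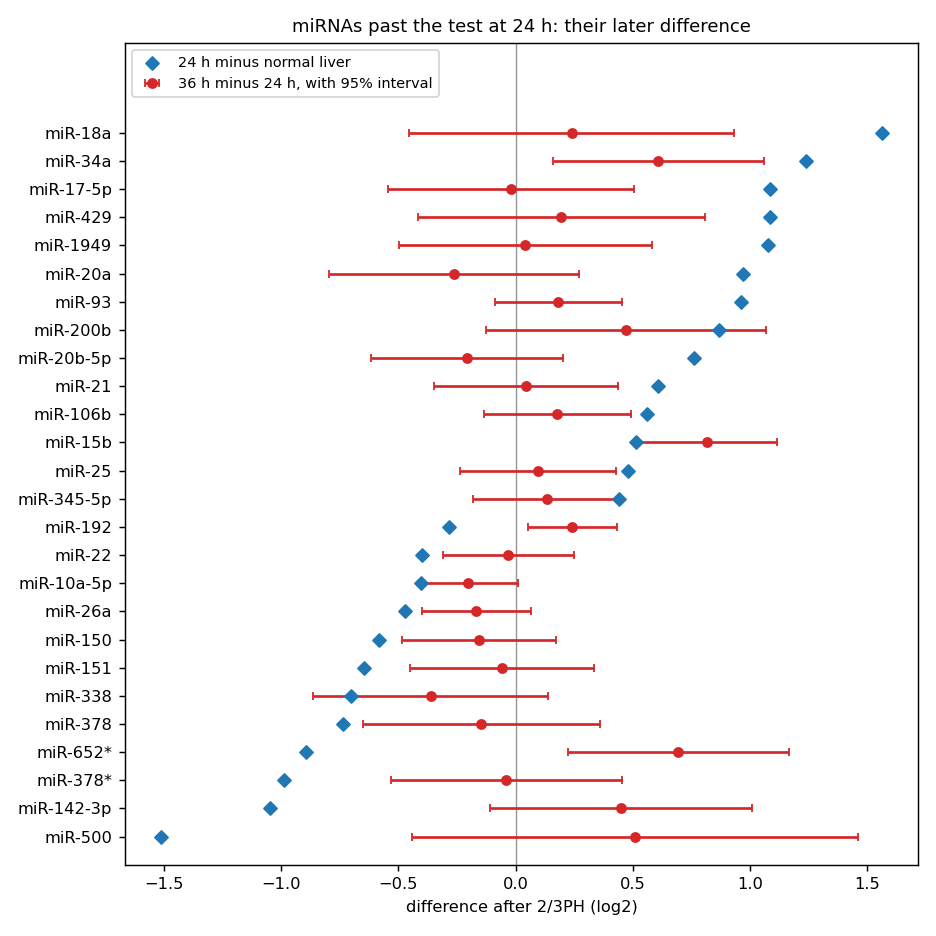
Difference on the log2 scale (horizontal axis) for the 26 miRNAs past the test between 24 h after 2/3PH and normal liver. Blue diamonds are 24 h minus normal and red points 36 h minus 24 h with 95% intervals from the limma fit; 22 of the red intervals contain 0, and those of miR-15b, miR-34a, miR-192 and miR-652* do not.

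For 13 of the 14 miRNAs that were higher at 24 h no further change was called. miR-18a, a member of the Myc-induced miR-17/92 cluster, stood 1.57 log2 units above normal at 24 h. Its normal livers read 11.1, 8.86 and 8.03, the first and the last of them at the detection floor, so the floor sets part of that difference. It read 30.5, 27.5 and 24.5 at 24 h and 41.5, 30.4 and 26.7 at 36 h, and the groups overlapped (log2 difference 0.24, SE 0.33). miR-17-5p, from the same cluster, read 36.4, 23.3 and 24.7 at 24 h and 29.2, 25.7 and 26.8 at 36 h. Its 24 h excess over normal was 1.09, but its lowest normal reading, 11.1, equals the detection floor of m79, so the floor may set part of that excess. The later difference of miR-17-5p was -0.02 (95% interval -0.54 to 0.51), and the 36 h arrays lay within the range of the 24 h arrays. miR-20a and miR-20b-5p, 0.97 and 0.76 above normal at 24 h, differed by -0.26 and -0.21 afterwards, neither called. Over the 7 detected miRNAs of the miR-17/92 cluster and its X-linked paralogue, 0 passed the test from 24 h to 36 h, 2 lay above 0 and 5 below, and the median was -0.04. miR-19a was the highest at 0.56 (limma adjusted p = 0.554), and 0.01 with the scan day block.

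The 3 miRNAs of the miR-106b/25 cluster had differences above 0 (1 of 3 under quantile normalization and in the deposited table, and 0 of 3 above the median of all 137 under normexp), and 0 of 3 passed the test. miR-93 read 23.2, 23.6 and 19.6 in normal liver, 50.4, 42.9 and 36.9 at 24 h, and 53.7, 47.5 and 45.8 at 36 h. The 36 h arrays overlapped those at 24 h and were all above normal liver, with a later difference of 0.18 (95% interval -0.09 to 0.45) after a 24 h difference of 0.96. miR-106b read 88.3, 92.03 and 75.8 at 24 h and 105.3, 97.6 and 86.7 at 36 h, a difference of 0.18 (95% interval -0.14 to 0.49). miR-25 differed by 0.10 (95% interval -0.24 to 0.43), and by 0.45 with the scan day block (limma adjusted p = 0.194). Of the other miRNAs that the study linked to the cell cycle by transfection of rat cell lines, miR-92a shares the miR-25 seed. It read 520, 543 and 532 at 24 h and 532, 465 and 497 at 36 h, a difference of -0.10. miR-101a read 45.1, 37.4 and 32.01 at 24 h and 38.3, 36.2 and 43.2 at 36 h, a difference of 0.05.

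miR-34a, a direct transcriptional target of p53, came nearest to a continued rise after miR-15b. It read 49.9, 53.7 and 52.7 in normal liver, 100, 129 and 144 at 24 h and 220, 149 and 201 at 36 h. All 36 h arrays were above all 24 h arrays, which were all above normal liver. The difference from 24 h to 36 h was 0.61 (SE 0.22, 95% interval 0.16 to 1.06) and did not pass after adjustment (limma adjusted p = 0.295). With the scan day block it was 0.88 (limma adjusted p = 0.0825). miR-429 and miR-200b, epithelial miRNAs of the miR-200 family, were 1.08 and 0.87 above normal at 24 h and differed by 0.20 and 0.47 afterwards. Neither was called, and miR-429 was detected on 2 of the 3 normal arrays. miR-1949, 1.08 above normal, differed by 0.04, and miR-21, an abundant growth-associated miRNA, by 0.05.

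Of the 12 miRNAs lower at 24 h, miR-652* and miR-192 had a later difference whose interval lay above 0, though neither passed after adjustment. miR-652* read 85.9, 78.2 and 114 in normal liver, 50.8, 52.1 and 44.7 at 24 h, and 86.7, 77.5 and 74.6 at 36 h. The later difference was 0.69 (SE 0.23, limma adjusted p = 0.218), and 36 h stood 0.20 below normal (limma adjusted p = 0.585). miR-192, an abundant hepatocyte miRNA, read 1170, 1281 and 1165 at 24 h and 1394, 1358 and 1523 at 36 h, a difference of 0.24 (limma adjusted p = 0.295). In both the 36 h arrays lay above the 24 h arrays and within or just below the normal range. With the scan day block the miR-652* difference was 0.85 (limma adjusted p = 0.0503).

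The remaining lower miRNAs had intervals that contained 0. miR-378*, processed from an intron of Ppargc1b, read 32.2, 32.5 and 26.1 in normal liver, 16.3, 13.9 and 15.5 at 24 h, and 14.7, 13.2 and 16.6 at 36 h. Its later difference was -0.04 (95% interval -0.53 to 0.45), and its partner arm miR-378 differed by -0.15. miR-26a, known to repress cyclins, read 457, 444 and 435 at 24 h and 351, 391 and 453 at 36 h, against 604 to 645 in normal liver. The 2 times overlapped and stayed below the normal livers. miR-142-3p, a marker of blood cells, was 1.05 log2 units below normal at 24 h and differed by 0.45 afterwards (limma adjusted p = 0.554), with overlapping arrays. miR-500 had the largest 24 h deficit, -1.51, but its normal livers read 116, 30.5 and 41.6, and its later difference was 0.51 with an SE of 0.46. miR-22, miR-151 and miR-150 differed by -0.03, -0.06 and -0.16, and miR-338, lower at 24 h, was not detected on every array of either time.

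**Figure D3:**
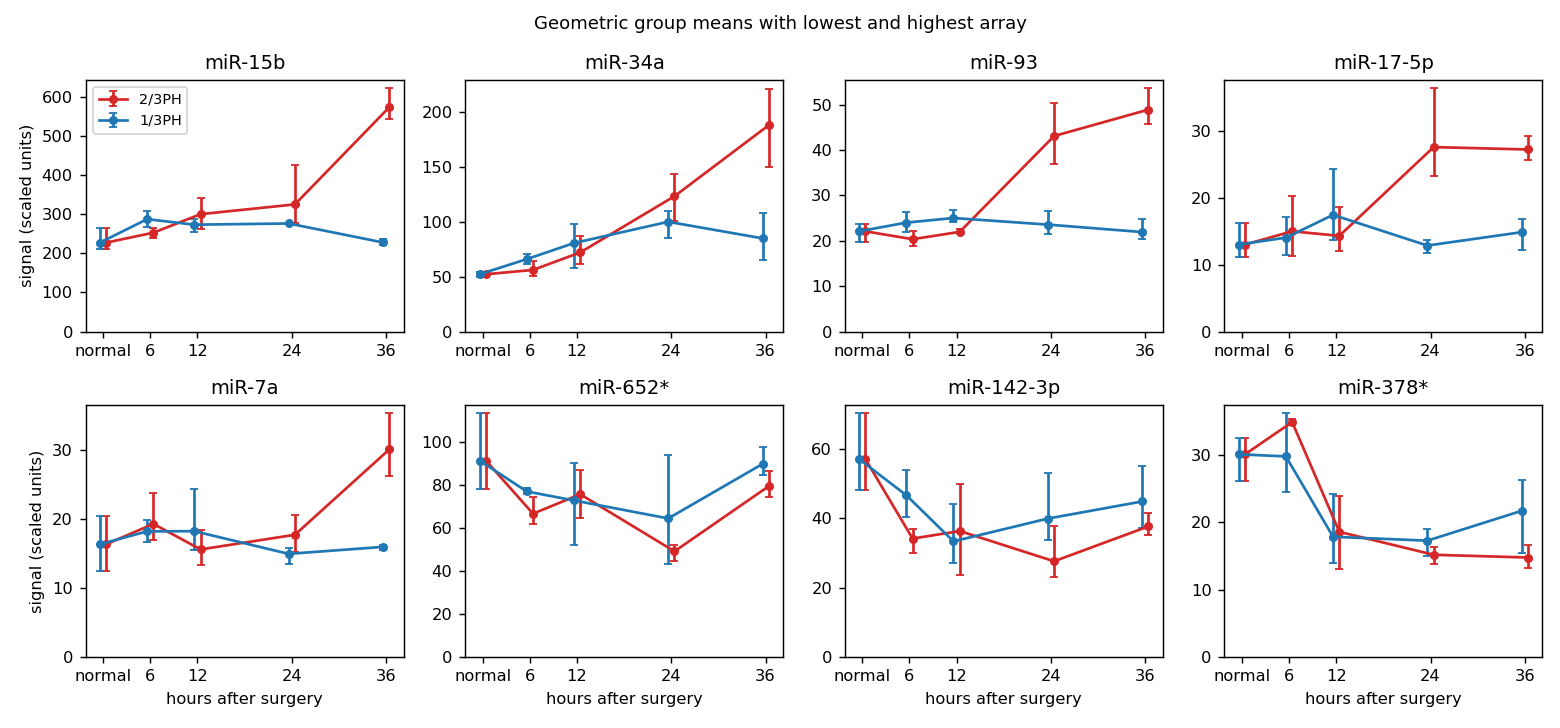
Scaled signal (vertical axis, linear, from 0) of 8 miRNAs against hours after surgery, red for 2/3PH and blue for 1/3PH, with unoperated normal liver at the left. Points are geometric group means and bars run from the lowest to the highest array; miR-15b and miR-34a stand highest at 36 h after 2/3PH, and miR-93 and miR-17-5p reach similar levels at 24 h and 36 h.

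Outside the 24 h differences, the miRNAs with an unadjusted p under 0.05 were looked at after their values were seen. miR-7a read 20.6, 17.8 and 15.2 at 24 h and 29.3, 26.3 and 35.4 at 36 h, without overlap, a log2 difference of 0.76 (SE 0.20, limma adjusted p = 0.0764). miR-7a was called, at 2 miRNAs in all, when the fit was limited to miRNAs detected on every array, but with the scan day block it differed by 0.64 (limma adjusted p = 0.274). Its difference between the operations did not pass (0.67, limma adjusted p = 0.797). miR-130a, known from studies of blood vessel growth, read 154, 169 and 129 at 24 h and 221, 169 and 214 at 36 h, a difference of 0.42 (limma adjusted p = 0.145), and the lowest 36 h rat lay level with the highest 24 h rat. miR-320 differed by 0.52. On the lower side, miR-100 read 18.0, 13.4 and 14.4 at 24 h and 9.88, 10.6 and 10.2 at 36 h. On m29B, m37B and m40 it was at the detection floor, so 3 of the 6 arrays gave no value above it and its log2 difference of -0.57 is set in part by the floor. miR-181a (-0.49), miR-125a-5p (-0.35) and miR-27b (-0.26) made up the rest of the lower 4, and with the scan day block they differed by -0.36, -0.14 and -0.04.

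**Figure D4:**
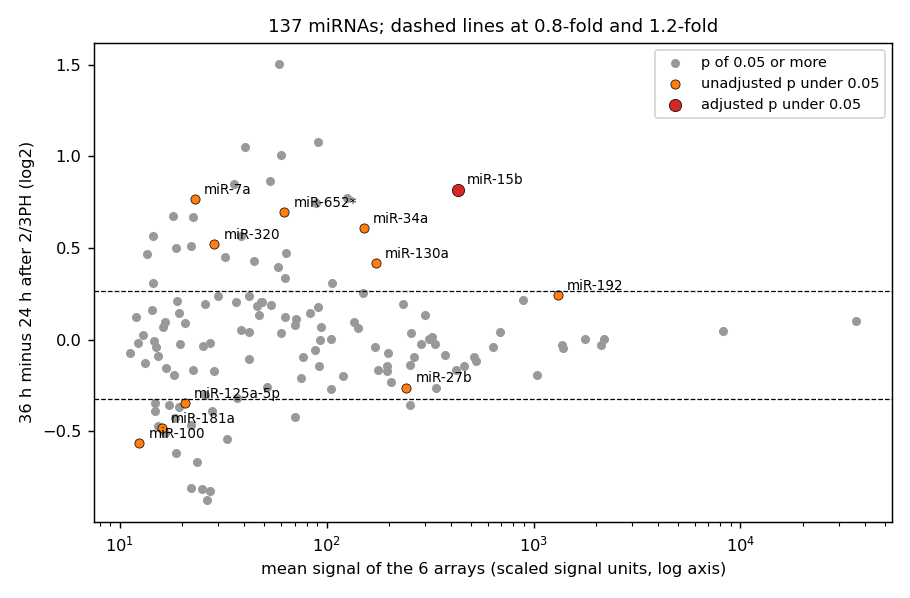
Difference between 36 h and 24 h after 2/3PH (vertical axis, log2) against the mean signal of the 6 arrays (horizontal axis, log scale) for 137 miRNAs. Dashed lines mark 0.8-fold and 1.2-fold; miR-15b (red) has an adjusted p under 0.05, the other 10 named miRNAs (orange) an unadjusted p under 0.05, and the points spread more widely at low signal.

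By size alone, 28 of the 137 miRNAs lay above 1.2-fold and 21 below 0.8-fold, together 35.8%, beside 35.4% of the 144 fitted (19.4% above and 16% below). Above 2-fold lay 4, and below 0.5-fold 0. The differences past the limits were fewest among bright miRNAs. Of the 45 dimmest miRNAs (signal 11.2 to 26.5), 24 in all were past the limits, 8 above and 16 below, against 6 of the 46 brightest. The 36 h arrays lay wholly above the 24 h arrays for 16 miRNAs and wholly below for 15, beside 22.9% of the 144 fitted without overlap (11.1% above and 11.8% below). Half-widths of the 95% interval had a median of 0.47 log2 units, and 96 of the 137 intervals lay within 1 log2 unit of 0, 43 within 0.5.

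Most of the 11 miRNAs above 1.6-fold, a limit set after the values were seen, had the same arrays highest or lowest in a group. In 9 of the 11, rat m26 was the highest of the 24 h group, in 10 m39B was the lowest of the 36 h group, and in 11 m46 was the highest of the 1/3PH 36 h group. miR-139-3p had the largest difference, 1.502 with an SE of 0.98, and read 89.8, 35.9 and 13.2 at 24 h and 179, 59.5 and 91.0 at 36 h. Its 13.2 was the detection floor of m31B, so the floor sets part of that difference. miR-212 read 99.2, 64.8 and 38.6 at 24 h and 168, 118 and 118 at 36 h, a difference of 1.08 (limma adjusted p = 0.525). miR-743a (1.05) and miR-125a-3p (1.01) overlapped widely between the times, and the lowest 24 h reading of miR-743a, 13.2, was also at the floor of m31B. The 4 lowest, let-7b*, miR-1*, miR-191* and miR-298 (-0.88 to -0.81), all had m40 as their lowest 36 h array, at the detection floor of 10.2, and m65 and m24, scanned on the same day as m40, as the lowest of the normal and 1/3PH 24 h groups. None of the 4 had an unadjusted limma p under 0.05.

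In the other families and clusters 0 members passed the test. The let-7 family, linked to differentiation, had 4 of 8 members above 0 and 4 below, with a median of -0.01. The miR-29 family, known for targeting collagens, had 1 above and 2 below (2 and 1 under quantile normalization and in the deposited table). The miR-30 family had 3 above and 2 below, but 0 and 5 under quantile normalization and 1 and 4 in the deposited table. All 5 members of the miR-23/27/24 clusters lay below 0, from -0.26 to -0.07, and below the median of the 137 miRNAs. The percentile over all probes moved that median to 0.38 and put 5 members above 0. It moves all miRNAs alike, so it cannot change a place relative to the median. Normexp moved the median to 0.55, with 4 members above 0 and 5 below the median. Below it there also lay 7 of 8 let-7 and 5 of 5 miR-30 members, but 1 of 5 leukocyte markers. Below the median lay 4 of 5 under quantile normalization and 3 of 5 in the deposited table. All 5 detected members of the miR-10/99/100 and miR-125 families lay from -0.57 to -0.08, miR-100 at the floor included. All 5 lay below the median of the 137 miRNAs, but 3 of 5 under normexp. By sign, 4 of the 5 lay above 0 with the percentile over all probes and 5 of 5 under normexp. In neither list did any pass after adjustment, and 67 of all 137 miRNAs lay below 0. miR-103 and miR-107, encoded within pantothenate kinase genes, differed by 0.00 and 0.25. miR-221, which is known to promote hepatocyte cycling, differed by 0.31 at signals of 12.3 to 13.4 (24 h) and 13.8 to 17.6 (36 h). Its highest 24 h reading, 13.4, was the detection floor of m29B, so the floor sets part of that difference.

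**Figure D5:**
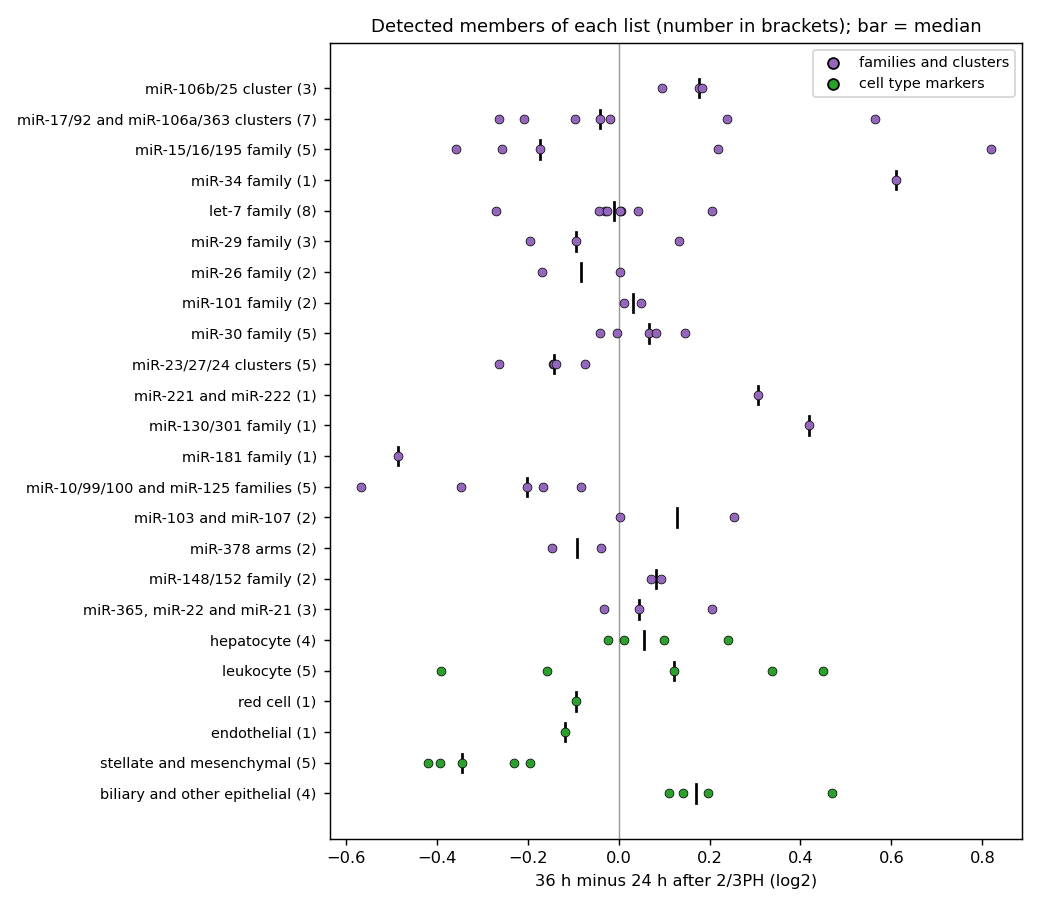
Difference between 36 h and 24 h after 2/3PH (horizontal axis, log2) for the detected miRNAs of each family or cluster (purple) and each set of cell type markers (green). Black bars are list medians; the 5 stellate and mesenchymal markers lie below 0 and the 4 biliary and other epithelial markers above 0, none of them past the test. Under normexp, which moved the median of all 137 miRNAs to 0.55, the 5 stellate markers lay above 0 and 3 of them below that median.

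The markers of liver cell types gave 0 calls from 24 h to 36 h. Hepatocyte miR-122 made up 47.03% to 52.8% of the signal on the 24 h arrays and 48.2% to 53.9% on the 36 h arrays, so the tissue label was borne out by its defining marker. All 5 stellate and mesenchymal markers lay below 0 (median -0.34), with summed signals of 317 to 465 at 24 h, 298 to 317 at 36 h and 302 to 376 in normal liver. All 5 were below the median of the 137 miRNAs, also under quantile normalization and in the deposited table, and 3 of 5 under normexp. By sign, 3 of the 5 lay above 0 with the percentile over all probes and 5 of 5 under normexp, where that median itself had moved above 0. All 4 biliary and other epithelial markers lay above 0 (median 0.17), with summed signals of 143 to 188 at 24 h and 177 to 215 at 36 h, and 3 of 4 were above 0 under quantile normalization and in the deposited table. The 5 leukocyte markers summed to 167 to 206 at 24 h and 197 to 212 at 36 h, with 3 above 0 and 2 below. Red cell miR-451 read 47.8 to 106 at 24 h and 64.01 to 89.0 at 36 h, and endothelial miR-126 differed by -0.12. Not detected on all 3 arrays of either time were miR-142-5p, miR-146b, miR-144, miR-126*, miR-145, miR-200c and miR-141. What part cell mixture had in the miR-15b difference was not tested.

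Detection differed little between the times. The software detected 130 to 147 miRNAs per array at 24 h and 135 or more at 36 h, total signal ran from 58458 to 82731 over the 6 arrays, and correlations of log2 signals between arrays were 0.968 to 0.990 within the 24 h group, 0.977 to 0.981 within the 36 h group and 0.945 to 0.987 between them. An array used only in the shared fit, rat m5m at 12 h after 1/3PH, was dim, with 91 miRNAs detected. miR-466b, miR-466b-1* and miR-466b-2* were detected on every 36 h array and no 24 h array. Their 36 h means were 1.09-fold, 1.48-fold and 1.39-fold the 24 h means, and none passed the test (limma adjusted p = 0.964, 0.712 and 0.554). For miR-466b-2* the 24 h mean is that of the detection floors, so its ratio is a lower bound. The lowest 36 h reading of miR-466b, 8.73, was itself at the floor of m39B, so its ratio is no bound. For miR-466b-1* the 24 h readings reached 14.2, above the floor. No miRNA detected on every 24 h array was missing from all 36 h arrays.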

How the data were processed

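Per the file headers, the authors read spot intensity from 1-colour Agilent rat miRNA arrays (Feature Extraction 10.7.3.1), background-subtracted and not scaled to each other. A deposited table of normalized log2 values served as an alternative. Processed spot signals were averaged per probe and summed over the 1 to 4 probes of each miRNA, divided by each array's 75th percentile over 109 probes above background on all arrays, floored at the lowest signal above background and put on the log2 scale. limma 3.58.1 (R 4.3.3) was fitted to 9 groups, 26 arrays and the 144 miRNAs that some group had detected throughout, with Benjamini-Hochberg adjustment at 0.05. With 3 rats against 3 an exact permutation p cannot go below 0.1, so the fit across miRNAs was used. The number of arrays limits the precision. In simulated data for 36 h against 24 h (144 miRNAs, 20 simulations), 30 miRNAs were changed, 15 by log2 1 and 15 by 0.5. The noise was independent between arrays, without slide or scan day effects. There the fit found 72.7% of changes of 1 and 32.7% of changes of 0.5, with 4.5% of calls false. These shares need not hold with fewer changed miRNAs or where slide and time coincide.

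Named miRNAs were those called between 36 h and 24 h, up to 3 bounded either way, up to 6 of each class of 24 h difference, 5 that the study singled out (the miR-106b/25 cluster, miR-92a and miR-101a) and members of the lists; others are named as chosen after their values were seen. The miRNAs and lists were chosen with earlier results of these data known. Alternatives covered scaling, background, summary, floor, filter, slide, scan day, the arrays fitted and each array left out. Sequences were matched by name.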

Additional observations from a re-analysis of the deposited data

Results flagged for a closer look

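miR-15b was taken up because its difference between 36 h and 24 h was not the same after the 2 operations. The difference after 2/3PH minus that after 1/3PH was 1.0974 on the log2 scale (limma adjusted p = 0.00356), with 0.82 after 2/3PH and -0.28 after 1/3PH. Leaving out any of the 6 arrays of 2/3PH gave 0.99 to 1.29. The normal livers do not enter this value, so leaving them out could not change it. With any array of 1/3PH left out, miR-15b stayed the single miRNA called. The 24 h arrays of 2/3PH and the 36 h arrays of 1/3PH share a slide, and with slide as a random block the value was 1.12 (limma adjusted p = 0.0647).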

How the results depend on the processing

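No paired analysis was possible because each array came from a different rat, so no rat was measured at both times. Of the miRNAs named, miR-15b alone was called between 36 h and 24 h, so the others staying uncalled says little about them. miR-15b lost its 36 h against 24 h call without scaling (0.74, limma adjusted p = 0.986), with the percentile over all probes (1.19, adjusted p = 0.486), under normexp (0.60, adjusted p = 0.0838) and in a fit of the 6 arrays alone (0.82, adjusted p = 0.201). Without scaling, 0 of 144 miRNAs had an unadjusted limma p under 0.05. Why the call was lost in these settings was not tested. The main count of 1 became 0 under these 4, 4 under quantile normalization (miR-15b and miR-7a higher, miR-10a-5p and miR-322 lower), 2 with the deposited log2 table (miR-466b-2* added), 2 with miRNAs detected on every array (miR-7a added) and 11 unadjusted. It ran from 1 to 2 on leaving out each array, with miR-7a added without m79 or m5m and miR-130a without m39B. The 49 miRNAs past 0.8-fold or 1.2-fold became 97 (93 up) with the percentile over all probes, 102 (all up) under normexp, 17 of 82 detected on every array and 4 at 0.5-fold or 2-fold, and ran from 47 to 56 on leaving out an array. The median of the 137 differences moved to 0.38 with the percentile over all probes and to 0.55 under normexp, and relative to it miR-15b stood at 0.82 and 0.06. The percentile over all probes moves all miRNAs alike, so the 0.82 could not change. The move under normexp was not shared by all miRNAs. Of those past the limits 57.1% were up, against 48.1% without scaling, 95.9% with all probes, 100% under normexp and 42.2% in the deposited table. The count carried on, 1, was 0 without scaling, with all probes, under quantile, normexp, the deposited table, either block or only the groups compared, 2 unadjusted (miR-15b and miR-34a), and 0 to 1 on leaving out an array (0 without m65, m75 or m29B). The count turned back was 0 to 0 on leaving out an array and 2 unadjusted (miR-652* and miR-192); it says nothing without scaling, with all probes or under normexp, where no difference at 24 h was called. The 26 differences at 24 h became 0 in those 3, 12 in the deposited table, 15 under quantile normalization, 9 without m26, 11 without m31B, 14 without m75, 15 without m29B and 32 without m5m, 16 with slide and 19 with scan day as a block, 14 of those 19 among the 26. Averaged over both operations the count of 0 was 11 unadjusted and 0 to 1 on leaving out an array (miR-652* without m23). The count differing between operations, 1, was 0 without scaling, with all probes, under normexp, with slide as a random block or with only the groups compared, 8 unadjusted, and 1 to 1 on leaving out an array. Differences of dim miRNAs are limited by signal near the floor.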
